A study of Caenorhabditis elegans with 6 samples.

Results

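Ribonucleotide reductase and the enzymes that make thymidylate supply the deoxynucleotides for DNA synthesis, and 4 of their genes were followed in larvae with a defect in DNA polymerase alpha-primase. They are rnr-1 and rnr-2, which encode the large and the small subunit of ribonucleotide reductase, Y110A7A.4 (currently named tyms-1), which encodes thymidylate synthase, and dut-1 (K07A1.2), which encodes dUTPase. The genes were chosen by name from the 45836 gene rows of the deposited count table, and all 4 were among the 16289 genes with enough counts to be tested. The libraries were made from whole Caenorhabditis elegans at L1, hatched overnight in M9, a salt buffer without food. There were 3 libraries from strain BCN6101, which carries the or148 allele of div-1, a polymerase alpha-primase subunit, and which the labels derive from strain EU548. The other 3 came from strain BCN1050, labelled N2 wild type. Both strains carry pdaf-21::mCherry, a red fluorescent reporter of daf-21, so the control is not N2 without a transgene. The labels call the libraries biological replicates without saying whether each came from its own culture, so p-values measure the spread between these libraries.

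Ribonucleotide reductase removes an oxygen from the sugar of ribonucleoside diphosphates, and this step is the only new source of deoxyribonucleotides in most cells. Its large subunit holds the catalytic site and the sites that sense nucleotide balance, and its small subunit holds the iron centre and radical that start catalysis. Thioredoxins and glutaredoxins return the enzyme to its reduced state. dUTPase splits dUTP, which keeps uracil out of DNA and leaves dUMP, and thymidylate synthase methylates dUMP to dTMP with a folate cofactor. In yeast and mammals reductase levels follow S phase and rise under replication stress.

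Libraries held from 25051167 to 27632878 counts. In CPM (counts per 1000000 counts), the div-1 transcript averaged 35.1 ± 8.45 over mutant and 32.7 ± 9.59 over wild-type libraries (SD, n = 3), so its level does not check the allele. The mutant libraries also held 6.52 ± 1.84 CPM of mut-16, a scaffold of small RNA amplification, against 51.9 ± 1.46 CPM, so the div-1 allele and the low mut-16 level cannot be told apart as the source of any difference between the groups. Of 15 stage and tissue markers, those of muscle, gut, neurons, epidermis, pharynx and germ line were detected in every library. The adult yolk gene vit-2 stayed between 0.191 and 0.829 CPM. The yolk gene vit-6 lay between 1.41 and 4.04 CPM, with means of 3.11 ± 0.986 for the mutant and 1.82 ± 0.521 for the wild type (SD, n = 3) that did not pass the threshold (0.77 in log2, edgeR adjusted p = 0.459, unadjusted p = 0.0485), and its part in the results was not tested. The sperm gene msp-142 had 1 count in all 6 libraries together. The embryonic genes pie-1 and mex-5 lay between 1.93 and 4.39 CPM and between 8.61 and 23 CPM. The mex-5 means were 19.8 ± 2.42 for the mutant and 14.1 ± 7.83 for the wild type (0.49 in log2, edgeR adjusted p = 0.672). Those of pie-1 were 2.99 ± 0.363 and 2.91 ± 1.3. Among wild-type libraries replicate 2 was the highest for these genes, as it was for rnr-2 and dut-1. Their part in the results was not tested.

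Both reductase subunits were higher in every mutant library than in every wild-type library, while thymidylate synthase and dUTPase overlapped between the groups. The difference was 2.19-fold for rnr-1 and 1.81-fold for rnr-2, and neither passed an adjusted p of 0.05 in edgeR's quasi-likelihood test over all genes. In bulk RNA, a different number of cells with a transcript and a different amount per cell cannot be told apart.

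The large subunit gene rnr-1 lies on chromosome III, from 9225339 to 9228798 on the minus strand (WBcel235, Ensembl release 115). It held 210.0, 110.3 and 128.4 CPM in mutant replicates 1, 2 and 3, from 5868, 2675 and 3406 counts. In wild-type replicates 1, 2 and 3 it held 61.3, 70.6 and 73.3 CPM, from 1494, 1849 and 1817 counts. Mutant replicate 1 was far above the other two, which were close to each other, and the lowest mutant library was still 1.51 times the highest wild-type library. The means were 150 ± 53.1 CPM over mutant and 68.4 ± 6.3 over wild-type libraries (SD, n = 3). On the log2 scale the difference was 1.13 ± 0.243 (SE), a fold of 2.19 with a 95% interval of 1.48 to 3.23 (edgeR adjusted p = 0.0906, unadjusted p = 0.00174). DESeq2 gave an adjusted p of 0.00291 for rnr-1, and edgeR without the filter on low counts gave 0.0262, so the call depended on the tool and the filter. Over the 17 alternatives with an adjusted p it ranged from 0.00291 to 0.331 for rnr-1.

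The small subunit gene rnr-2 lies on chromosome III as well, from 4093308 to 4094921 on the minus strand. It held 185, 131 and 127 CPM in mutant replicates 1, 2 and 3 and 64.7, 100.3 and 79.8 CPM in wild-type replicates 1, 2 and 3. The same mutant library was the highest and wild-type replicate 1 was again the lowest. The groups lay closer together than for rnr-1, with the lowest mutant library at 1.27 times the highest wild-type library. The means were 148 ± 32.4 CPM and 81.6 ± 17.8 (SD, n = 3). On the log2 scale the difference was 0.86 ± 0.215 (SE), a fold of 1.81 with a 95% interval of 1.28 to 2.56 (edgeR adjusted p = 0.149, unadjusted p = 0.00421). DESeq2 gave an adjusted p of 0.029 for rnr-2, and the range over the same alternatives was 0.029 to 0.429.

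**Figure D1:**
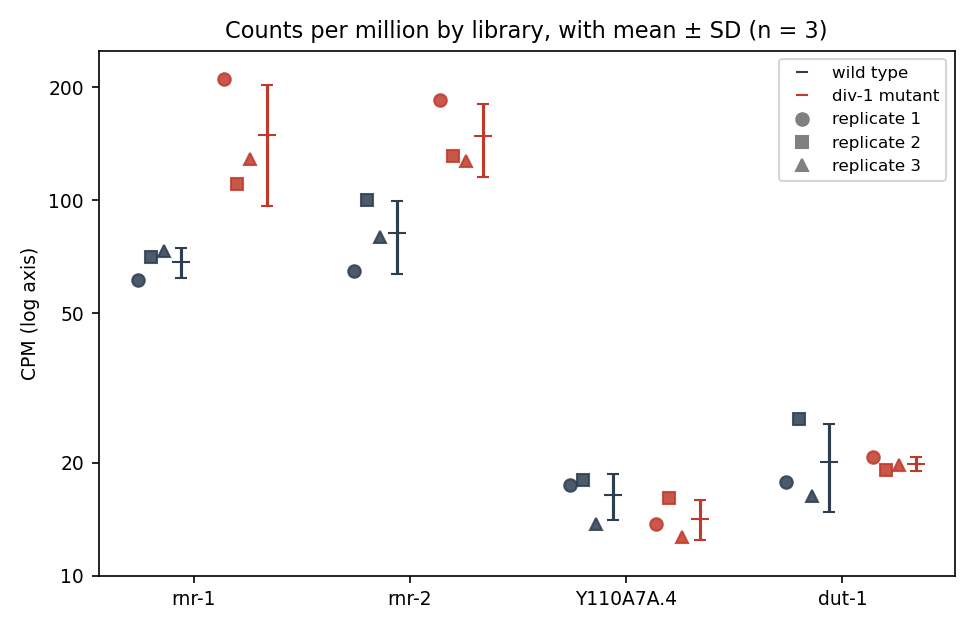
CPM on a log axis for the 4 genes in each library, wild type in dark blue and div-1 mutant in red, with marker shapes for replicate numbers and bars for the mean ± SD (n = 3). The reductase genes separate the groups, with rnr-1 at 110.3 CPM or more in the mutant and 73.3 CPM or less in the wild type, while Y110A7A.4 and dut-1 overlap.

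Many genes separated the groups, and few of similar abundance had a log2 fold change as high. Of all tested genes, 10.2% were higher in the mutant without overlap, as rnr-1 and rnr-2 were, and 0.884% were called higher by edgeR, as neither was. Calls in the other direction made up 0.0123%, and calls in either direction 0.896%. By log2 fold change rnr-1 ranked 569 and rnr-2 ranked 985 from the top of 16289 genes, and by p they ranked 312 and 462. The reductase genes are abundant, at the 88.5 and 89.1 percentile of mean CPM. Among the 2857 genes whose mean CPM lay within 2-fold of that of rnr-1, rnr-1 included, 11 had a log2 fold change as high, and 10 were called in either direction. Among the 2764 within 2-fold of rnr-2, 24 had one as high as rnr-2.

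**Figure D2:**
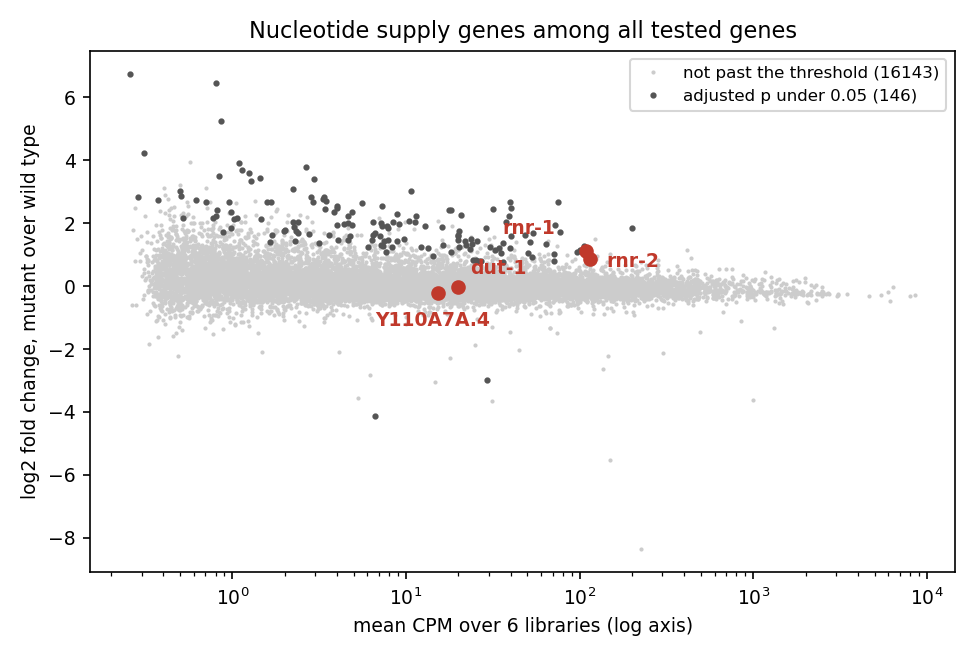
Each point is 1 of 16289 tested genes, by mean CPM over the 6 libraries on a log axis and by log2 fold change of mutant over wild type, with the 146 called genes in dark grey and the 4 nucleotide supply genes in red. At their level rnr-1 and rnr-2 lie at the upper edge of the cloud, at 1.13 and 0.86, and Y110A7A.4 and dut-1 lie inside it.

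The balance of the subunits was compared within each library. The ratio of rnr-1 to rnr-2 counts was 1.13, 0.843 and 1.01 in mutant replicates 1, 2 and 3 and 0.946, 0.704 and 0.918 in wild-type replicates 1, 2 and 3. These ranges overlapped, with a difference of 0.22 in mean log2 ratio (two-sided exact permutation p = 0.4, where 0.1 is the smallest that 3 against 3 libraries allows), which does not show that the balance was the same. Per kilobase of exon, the small subunit was the more abundant transcript in both groups. It stood at 107 ± 23.3 CPM per kb over mutant and 58.9 ± 12.9 over wild-type libraries, against 56.8 ± 20.2 and 26 ± 2.39 for rnr-1 (SD, n = 3). The per kb level of rnr-1 was 0.444 to 0.597 times that of rnr-2 over the mutant libraries and 0.371 to 0.498 times over the wild-type libraries.

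Thymidylate synthase and dUTPase were much less abundant and showed no separation of the groups. Y110A7A.4, on chromosome I from 5138250 to 5139382 on the plus strand, held 13.7, 16.1 and 12.7 CPM in mutant replicates 1, 2 and 3. It held 17.4, 17.9 and 13.7 CPM in wild-type replicates 1, 2 and 3, so the mutant values lay low in a shared range. Y110A7A.4 differed by -0.21 ± 0.17 in log2 (SE; edgeR adjusted p = 0.715), a fold of 0.866 with a 95% interval of 0.659 to 1.14. The gene dut-1, on chromosome I from 9585417 to 9587203 on the plus strand, held 20.7, 19.1 and 19.7 CPM in mutant replicates 1, 2 and 3 and 17.7, 26.2 and 16.3 CPM in wild-type replicates 1, 2 and 3. All 3 mutant values lay inside the wild-type range. It differed by -0.02 ± 0.196 in log2 (SE; edgeR adjusted p = 0.985), and the fold of 0.989 had a 95% interval of 0.723 to 1.35. Its sign turned in 7 of 18 alternatives, with values of up to 0.22. For dut-1 the interval leaves out a difference as large as the fold measured for rnr-1 or rnr-2, and so does that of Y110A7A.4.

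Per kilobase of exon, the order of levels was rnr-2, rnr-1 and then Y110A7A.4 and dut-1 in both groups. Y110A7A.4 stood at 15.8 ± 2.24 CPM per kb in wild-type and 13.7 ± 1.7 in mutant libraries (SD, n = 3). For dut-1 the values were 13 ± 3.43 and 12.8 ± 0.518. These last 2 genes overlapped in both groups, and every other neighbouring pair in the order was separated in all 3 libraries of each group. The per kb ratio of rnr-1 to Y110A7A.4 was 1.67 ± 0.376 in the wild type and 4.22 ± 1.68 in the mutant.

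The difference between the reductase genes and the thymidylate genes was also expressed as count ratios within libraries, where scaling drops out. The count ratio of rnr-1 to Y110A7A.4 was 15.3, 6.84 and 10.1 in mutant replicates 1, 2 and 3 and 3.52, 3.93 and 5.34 in wild-type replicates 1, 2 and 3. The count ratio of rnr-2 to dut-1 was 8.95, 6.85 and 6.46 over the mutant libraries and 3.66, 3.84 and 4.89 over the wild-type libraries, in the same order. All 4 ratios of a reductase gene to Y110A7A.4 or dut-1 were higher in every mutant library than in every wild-type library, by 0.84 to 1.28 in log2. Each reached an exact permutation p of 0.1, the smallest the design allows (two-sided; 0.15 after Benjamini-Hochberg adjustment over 6 ratios). These 4 ratios were not among the planned ones and reuse the same genes. They restate the separation of rnr-1 and rnr-2 described above on a scale without library scaling, and are not separate support for it. The ratio of dut-1 to Y110A7A.4 overlapped, with a difference of 0.22 in mean log2 ratio (exact permutation p = 0.3).

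Variation between libraries differed among the genes and groups, beside a common biological coefficient of variation of 0.224 over all tested genes. The coefficient of variation of rnr-1 was 35.5% over mutant and 9.22% over wild-type libraries, where counting alone gives 1.58% and 2.41%. For rnr-2 it was 21.9% in each group, close to that common value. For dut-1 in the mutant it was 4.05%, about the 4.38% of counting alone, and in the wild type 26.5%, through the high value of replicate 2. Mutant replicate 1 held 3.07 times the wild-type mean of rnr-1 and 2.27 times that of rnr-2, and mutant replicates 2 and 3 together averaged 1.75 and 1.58 times. Without mutant replicate 1 the log2 fold change was 0.80 for rnr-1 and 0.66 for rnr-2 (edgeR adjusted p = 0.0716 and 0.253). Without replicate 1 of both groups it was 0.73 and 0.52 (edgeR adjusted p = 0.161 and 0.387).

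Genes of S phase and DNA replication also varied between libraries. Of 24 such genes, among them the MCM helicase subunits, the sliding clamp gene pcn-1, the cyclin E gene cye-1 and div-1 itself, none passed the threshold, 14 had a positive log2 fold change and the median was 0.07. Relative to their wild-type mean their median stood at 0.37 in log2 in mutant replicate 1, -0.19 and -0.08 in mutant replicates 2 and 3, and -0.30, -0.02 and 0.19 in wild-type replicates 1, 2 and 3. Mutant replicate 1 was thus high and wild-type replicate 1 low for these genes as for the reductase, and 15 of the 24 were highest in mutant replicate 1. The likeness did not extend to wild-type replicate 3 for rnr-2, which stood at 0.978 times its wild-type mean there and 1.23 times in wild-type replicate 2. Over all tested genes 22.4% were highest in mutant replicate 1. Of the 1661 genes that were higher in the mutant without overlap, 46.7% were highest there, as rnr-1 and rnr-2 were. Such genes can be highest only in 1 of the 3 mutant libraries, while the 22.4% is a share over all 6 libraries. The rise between these shares is therefore in part fixed by the selection.

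Set against this median within each library, a comparison chosen after the values were seen, the reductase values drew closer together inside the mutant group. In log2, rnr-1 stood 1.25, 0.88 and 0.99 above the median in mutant replicates 1, 2 and 3 and 0.14, 0.07 and -0.09 from it in wild-type replicates 1, 2 and 3. For rnr-2 the mutant values were 0.81, 0.87 and 0.72 and the wild-type values -0.04, 0.32 and -0.23. Neither gene overlapped between the groups, and the mean differences were 1.00 and 0.78 (two-sided exact permutation p = 0.1 for each, the smallest possible). Y110A7A.4 and dut-1 overlapped on this scale too, at -0.28 and -0.06 (exact permutation p = 0.5 and 0.9). Inside the mutant group the values of Y110A7A.4 and dut-1 instead drew further apart. In log2 they were -0.63, 0.17 and -0.29 for Y110A7A.4 and -0.33, 0.12 and 0.05 for dut-1 in mutant replicates 1, 2 and 3. Before, they were 0.776 to 0.985 and 0.951 to 1.03 times the wild-type mean. Whether S phase content set the spread was not tested.

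**Figure D3:**
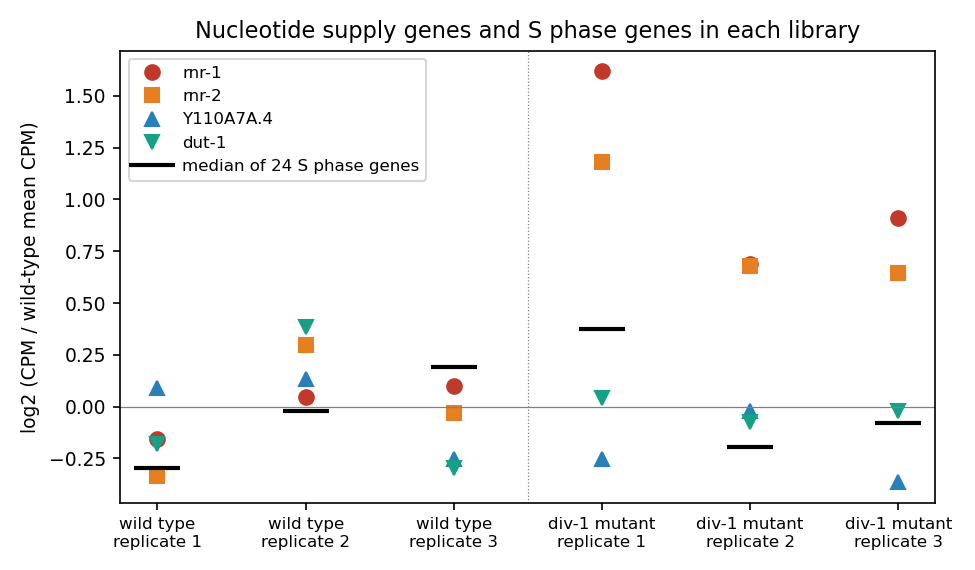
The log2 ratio of each gene's CPM to its wild-type mean in every library, wild type on the left and div-1 mutant on the right, with a black bar for the median of 24 S phase and replication genes. In all 3 mutant libraries rnr-1 and rnr-2 lie at least 0.72 above the bar, and the bar itself is highest in mutant replicate 1, at 0.37.

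Most other genes of nucleotide supply had log2 fold changes slightly below 0, and no test called one. In 5 lists with 46 genes, all of them tested, none passed the threshold of edgeR, DESeq2 or any other alternative. At an unadjusted p under 0.05, 2 were higher and 5 lower, against 8.26% higher and 2.44% lower of all tested genes. The log2 fold change was negative in 38 of the 46, with a median of -0.20, where 8795 of all 16289 tested genes were negative, with a median of -0.03. With library sizes alone as the scaling, 35 of the 46 were negative with a median of -0.11 beside 0.06 for all genes. Without mutant replicate 1, 32 were negative with a median of -0.13, and without replicate 1 of both groups 31 with a median of -0.094. None had a log2 fold change as high as that of rnr-2, and without overlap 1 was higher and 8 lower, beside 10.2% and 7.73% of all genes. These shares of all genes were not matched for level. Among the 4628 genes within 2-fold of dut-1 in mean CPM, 36.3% had a log2 fold change as high as its -0.02. Without overlap, 313 of those 4628 were higher and 571 lower. Among the 2857 within 2-fold of rnr-1, 158 were higher and 245 lower without overlap.

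Among 10 thymidylate and folate genes, 9 were negative, with a median of -0.34. In log2 relative to the wild-type mean, the list median was -0.15, -0.39 and -0.44 in mutant replicates 1, 2 and 3. It was -0.09, -0.13 and 0.28 in wild-type replicates 1, 2 and 3. Wild-type replicate 3 thus stood apart, and mutant replicate 1 lay close to the other wild-type libraries. The methylenetetrahydrofolate dehydrogenase gene dao-3 stood at 43 ± 2.99 CPM over mutant and 57.4 ± 6.54 over wild-type libraries (SD, n = 3; log2 fold change -0.42, edgeR adjusted p = 0.302). The formyltetrahydrofolate dehydrogenase gene alh-3 stood at 216 ± 14 and 277 ± 32.2 CPM (log2 fold change -0.36, edgeR adjusted p = 0.427). The dihydrofolate reductase gene dhfr-1, which regenerates the cofactor that thymidylate synthase uses up, had a log2 fold change of -0.09 (0.030 without wild-type replicate 2), and R53.2 (dtmk-1), the thymidylate kinase that acts next, had -0.75 with a 95% interval of -1.66 to 0.17. That value rested on wild-type replicate 3, at 70.8 CPM beside 28.7 and 26 in the other wild-type libraries, and without it R53.2 had -0.14. The uracil-DNA glycosylase gene ung-1, which removes uracil that dUTPase did not keep out, was the only positive member, at 0.33 with an interval of -0.57 to 1.23, and ranged from 0.016 to 0.79 with single libraries left out.

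All 6 nucleotide kinase genes were negative, with a median of -0.30. F40F8.1, a UMP-CMP kinase, stood at 27.1 ± 2.22 CPM over mutant and 36.6 ± 2.1 over wild-type libraries (log2 fold change -0.43, edgeR adjusted p = 0.238). The guanylate kinase gene guk-1 stood at 68.5 ± 5.96 and 82.7 ± 7.01 CPM (log2 fold change -0.27, edgeR adjusted p = 0.532). The 9 genes of pyrimidine and purine synthesis had 8 negative values and a median of -0.20, led by R06C7.5 (adsl-1), the adenylosuccinate lyase, at 42.6 ± 2.53 and 56.8 ± 1.52 CPM (log2 fold change -0.41, edgeR adjusted p = 0.213). The UMP synthase gene umps-1 had -0.38 (edgeR adjusted p = 0.403). In log2 relative to the wild-type mean, this list's median was -0.48, -0.01 and -0.18 in mutant replicates 1, 2 and 3. It was 0.05, 0.15 and -0.24 in wild-type replicates 1, 2 and 3, so the groups overlapped. The kinase medians overlapped as well, with -0.12 in mutant replicate 2 and -0.15 in wild-type replicate 3.

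Among 11 salvage and breakdown genes, 7 were negative, with a median of -0.13 and a range of -0.32 to 0.13. The smallest p in that list belonged to T19B4.3 (aprt-1), an adenine phosphoribosyltransferase, at -0.32 (edgeR adjusted p = 0.652; -0.14 without mutant replicate 1), and the cytidine deaminase gene cdd-2 at -0.25 (edgeR adjusted p = 0.679). ZK177.8 (sahd-1), of the SAMHD1 type of dNTP hydrolases, had 0.09 with an interval of -0.23 to 0.40. Of 10 thioredoxin and glutaredoxin genes, 8 were negative, with a median of -0.17. The remaining 2 were trx-1, a thioredoxin known from a pair of sensory neurons, with 3.99 ± 0.224 CPM beside 2.68 ± 0.574 in the wild type (0.57 in log2, edgeR adjusted p = 0.417), and the glutaredoxin gene glrx-10 with 57.2 ± 18.5 beside 37.5 ± 8.29 (0.61, edgeR adjusted p = 0.439). Without mutant replicate 1 glrx-10 had 0.31. By library, the medians of the salvage list and of the thioredoxin and glutaredoxin list overlapped between the groups too.

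**Figure D4:**
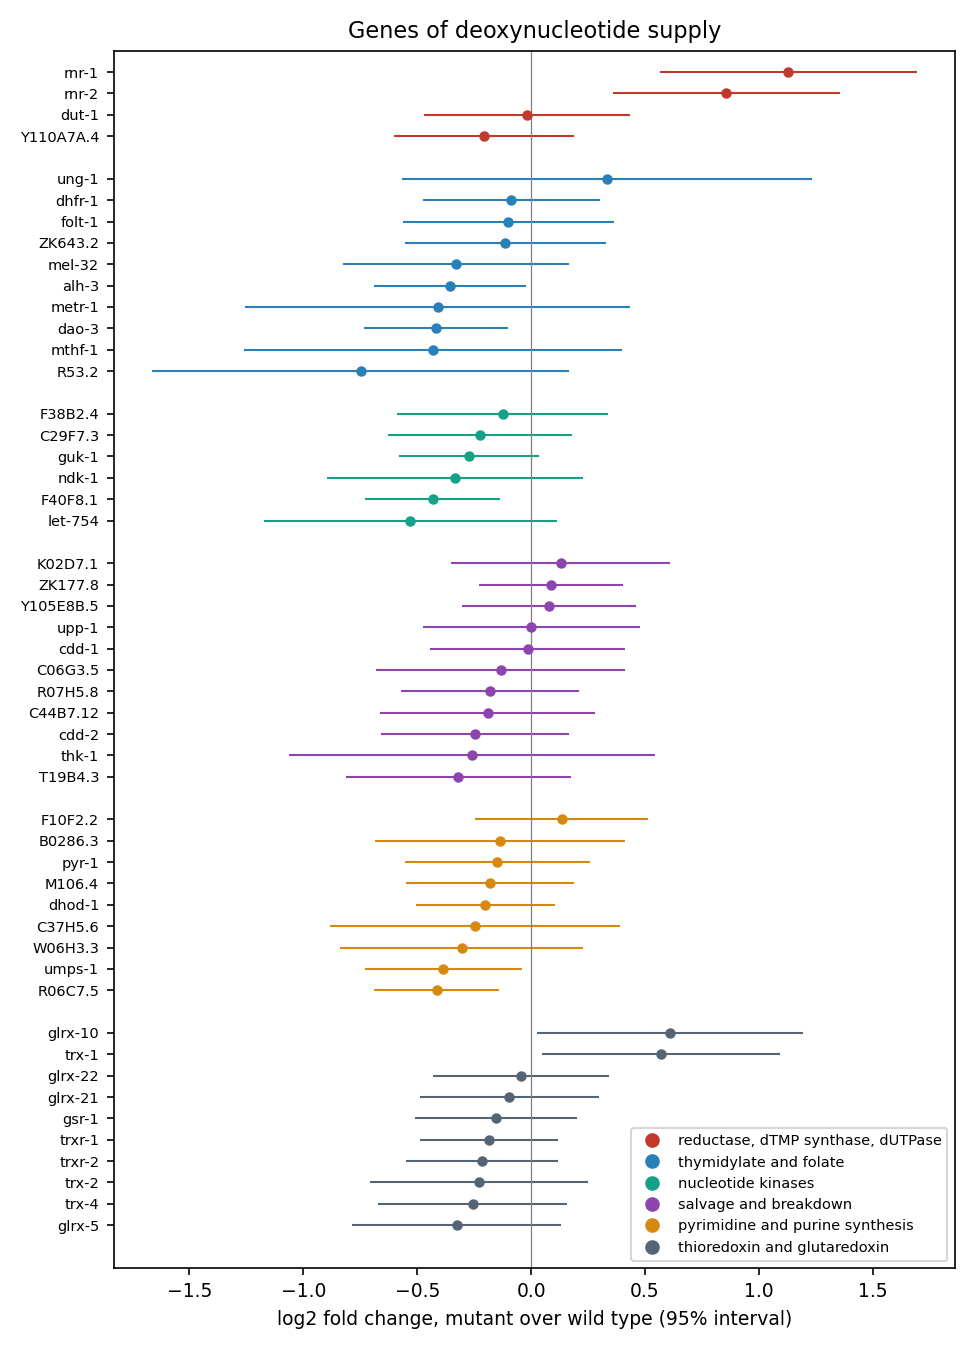
Log2 fold changes of mutant over wild type with 95% intervals for the 4 genes and 46 other genes of nucleotide supply, coloured by list. The intervals of rnr-1 and rnr-2 lie above 0, and 38 of the 46 other values lie below it.

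Genes that sense stalled replication or set S phase transcription were compared next. Of 10 checkpoint genes none passed the threshold, 5 were positive and the median was 0.01. The checkpoint kinase gene chk-1 stood at 13.8 ± 3.78 CPM over mutant and 20.6 ± 4.23 over wild-type libraries (SD, n = 3; log2 fold change -0.58, edgeR adjusted p = 0.428), and hpr-9, of the checkpoint clamp, at 8.83 ± 3.8 and 5.34 ± 0.374 (0.73, edgeR adjusted p = 0.446). Without mutant replicate 1 hpr-9 had 0.34. The 9 genes of the RB, E2F and DREAM group, which repress and activate cell cycle genes, lay between -0.23 and 0.03, with none past the threshold and a median of -0.11. In that group lin-37 had -0.15 and efl-2 had -0.13 (edgeR adjusted p = 0.751 and 0.756). High values in mutant replicate 1 were not particular to S phase genes. Relative to the wild-type mean, the checkpoint and RB group medians stood there at 0.237 and 0.225 in log2. In wild-type replicate 3 these medians were 0.115 and 0.230. In the S phase list the origin recognition gene orc-1 had 0.66 (edgeR adjusted p = 0.461), or 0.38 without mutant replicate 1, and cdk-4, a cyclin-dependent kinase of G1, had -0.27 (edgeR adjusted p = 0.559).

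Likeness of pattern was measured over the 6 libraries as the root mean square difference in log2 CPM, each gene centred on its own mean, among genes of at least 5 CPM. Nearest to rnr-1 was dog-1, a helicase that protects guanine-rich DNA, at 0.125, followed by T24E12.5 at 0.137 and F53C11.1 at 0.14. The log2 fold change of dog-1 was 1.25, from means of 49.1 CPM in the mutant and 20.6 CPM in the wild type (edgeR adjusted p = 0.0863). Nearest to rnr-2 were R03H10.6 at 0.0989, F28C6.1 (aptf-4) at 0.116 and F36H5.10 at 0.123. The reductase genes lay 0.214 apart, and each was number 27 in nearness to the other among 11097 genes. Among the genes near dut-1 were mboa-3 at 0.101 and fncm-1, a helicase of the FANCM type, at 0.109. Y110A7A.4 was nearest to T21B4.4 at 0.0335, lsm-3 at 0.0361 and lgc-12 at 0.0383. Its own departure from its mean was only 0.188, so many genes with little variation lay near it, whereas that of rnr-1 was 0.612.

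Overlapping and adjacent genes bear on what each row counts, since the counting is not stated to use strand. The snoRNA gene T23G5.7 inside rnr-1 held no count in any library. T23G5.3, which lies 203 bases from rnr-1 on the same strand, had a log2 difference of -0.10 (edgeR adjusted p = 0.929). C03C10.2, which shares 10 bases with the end of rnr-2, held 8 counts in all libraries together. Y110A7A.24, a noncoding RNA gene on the other strand, shares 41 bases of exon with Y110A7A.4 and was matched to no row of the counts, so its reads were not analysed here. K07A1.3 shares 56 bases of exon with dut-1 on the other strand. It stood at 11.6 ± 2.42 CPM over mutant and 15.4 ± 2.47 over wild-type libraries (log2 fold change -0.41, edgeR adjusted p = 0.551). How reads over the shared bases were assigned is not stated, so whether the counts of dut-1 and K07A1.3 mix there is not known. Of genes nearby without overlap, mtm-1, 278 bases from Y110A7A.4, had -0.04 (edgeR adjusted p = 0.949) and K07A1.13, 681 bases from dut-1, had 0.26 from 86 counts in all (edgeR adjusted p = 0.864).

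Leaving out any single library kept the sign of rnr-1 and rnr-2, as it must where groups do not overlap. The log2 fold change ranged from 0.80 to 1.3 for rnr-1 and from 0.66 to 1.03 for rnr-2 over these fits, with edgeR adjusted p from 0.0716 to 0.331 and from 0.195 to 0.429.

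**Figure D5:**
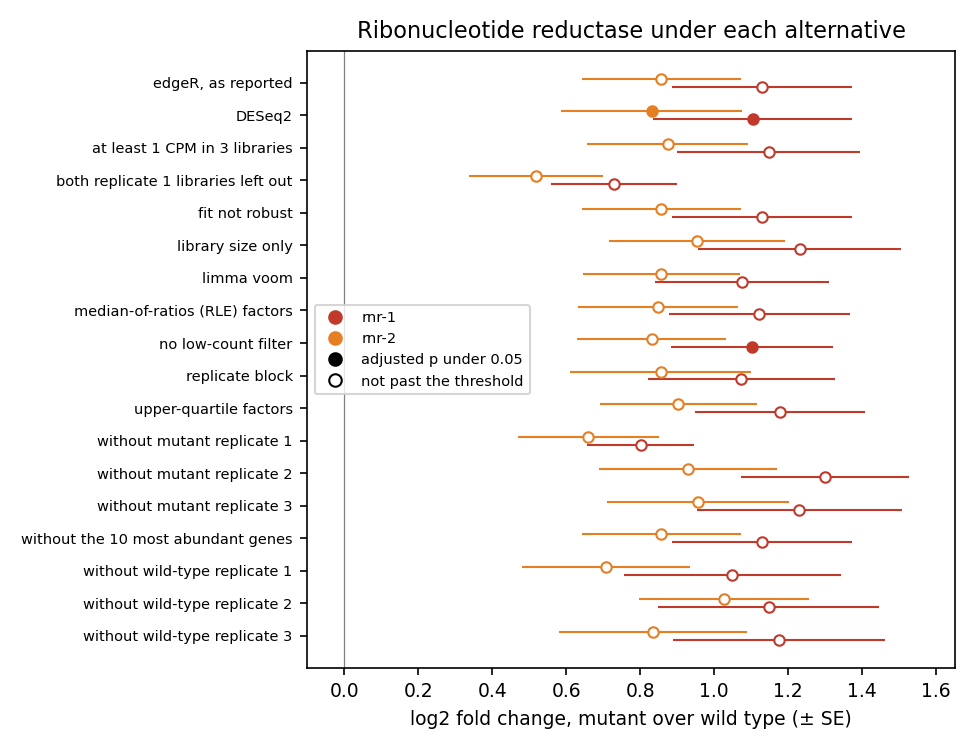
Log2 fold change ± SE of rnr-1 in red and rnr-2 in orange under the reported edgeR fit and 17 alternatives, with filled markers where the adjusted p was under 0.05. All values lie above 0.5, the lowest without replicate 1 of both groups, and the filled markers are those of DESeq2 for each gene and of the fit without a low-count filter for rnr-1.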

How the data were processed

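The authors deposited raw counts per feature for 6 libraries, in whole numbers and without normalisation. Per the submitters' processing notes, the tools were TopHat2 2.1.0, featureCounts 1.5.0 and DESeq2 1.8.1, with no roles stated. For genome build, annotation and strand setting the entry is: not given in the sources used here. Per the labels' protocols, libraries came from a small RNA kit with short inserts, which are harder to assign among similar genes. The table has 99774 features; its 45836 gene rows alone set library sizes and normalisation. Groups and replicate numbers came from sample titles.

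The test of each gene was that of edgeR 4.0.16 under R 4.3.3 (TMM, default expression filter, robust quasi-likelihood fit on group, two-sided, Benjamini-Hochberg adjusted p under 0.05 over 16289 genes), tested on simulated data. DESeq2 1.42.0, limma 3.58.1, other scalings, filters, a replicate block and libraries left out were alternatives. Exact permutations ran over 20 assignments. CPM values use effective library sizes. Exonic lengths and positions came from the Ensembl release 115 annotation (WBcel235). Named were the 4 genes, the 2 genes of smallest p in each list, the 3 genes nearest in pattern to each, and overlapping or adjacent genes; dhfr-1, R53.2, ung-1 and ZK177.8 were named in addition, after their values were seen. One gene near dut-1 in pattern is not reported here. The genes and lists were chosen with earlier results of these data known.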

Additional observations from a re-analysis of the deposited data

How the results depend on the processing

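Over the 18 alternatives for each gene, rnr-1, rnr-2 and Y110A7A.4 kept their sign in all 18 and dut-1 in 11. rnr-1 passed the threshold with DESeq2 (log2 fold change 1.10) and without a low-count filter (1.10), and rnr-2 with DESeq2 (0.83); no other alternative changed a call of the 4 genes, and the cause was not tested. dut-1 turned positive with the stricter filter (0.00018), library size only (0.077), limma voom (0.012), the replicate block (0.014) and upper-quartile factors (0.030), and ranged from -0.15 to 0.22 with single libraries left out. Y110A7A.4 ranged from -0.33 to -0.13 there. The count of 146 called genes became 68 without replicate 1 of both groups, 483 with DESeq2, 306 without a filter and 52 under the replicate block, and 36 to 116 with single libraries left out. No pathway gene was called in any of them. Under the replicate block rnr-1 had 1.07 (adjusted p = 0.206), rnr-2 0.86 (adjusted p = 0.316) and Y110A7A.4 -0.20. For the 2 planned count ratios the mean difference of 0.22 cannot change when libraries are paired, so only the exact p differs. It was 0.25, the smallest that 3 pairs allow, for rnr-1 to rnr-2 and 0.5 for dut-1 to Y110A7A.4. Deviations of same-numbered libraries from their group means correlated at -0.22, 0.504 and -0.315. Each group mean rests on only 3 libraries, so these correlations constrain one another and cannot decide whether the libraries were paired. The highest correlation, 0.622, was that of mutant replicate 1 with wild-type replicate 3. The numbers are those of the sample titles, which do not state a pairing. In that order the count columns are named MUT1, MUT3 and MUT4, and TR2, TR3 and TR4, so replicate 1 joins MUT1 with TR2. The rnr-1 to rnr-2 difference ranged from 0.08 to 0.33 and that of dut-1 to Y110A7A.4 from 0.09 to 0.35 with single libraries left out. At 3 libraries a group, exact tests cannot pass 0.05.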
